A study of Mus musculus with 262 samples.

Results

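The genes examined here encode 7 parts of the renin-angiotensin system or peptidases that make or break its peptides: Agt, Ren1, Ace, Mme, Enpep, Agtr1a and Atp6ap2. They were taken by symbol from the 47069 genes of the TPM tables and the 24107 genes of the read count table, and all 7 were present in each. The samples came from kidneys of male mice aged 2 months. From C57BL/6 mice there were single cells, sorted on DBA, c-Kit, both or PNA and captured on a microfluidic chip, which the authors named as 87 type A intercalated, 23 type B intercalated, 74 principal, 19 proximal tubule and 32 non-epithelial cells. Bulk RNA of sorted C57BL/6 cells formed 2 c-Kit samples (c-Kit is the receptor encoded by Kit) and 2 DBA samples. Cells of the strain Atp6v1b1GFP, sorted on GFP fluorescence, formed 2 GFP-positive and 2 GFP-negative samples. Microdissected single tubules of C57BL/6 mice comprised 11 CCD (collecting duct of the cortex) and 8 cTAL (thick ascending limb of the cortex). No treatment was given to any group, per the labels.

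In the renin-angiotensin system, renin cuts angiotensinogen to angiotensin I, and angiotensin-converting enzyme cuts that to angiotensin II, the ligand of the AT1 receptor. Surface peptidases then remove the peptides: neprilysin (Mme) and aminopeptidase A (Enpep) are among them. In the kidney, renin is known from granular cells of the afferent arteriole, angiotensinogen and most of these peptidases from the proximal tubule, and AT1 receptors promote salt reabsorption along the nephron.

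Reads in genes of the GFP samples ran from 35528206 to 40809235. The other tables hold TPM (transcript abundance scaled for length and then to the same sum in all samples), so sequencing depth is unknown there, and a cell had 1092 to 4307 genes at 1 TPM or more. On average, cells labelled type A and type B carried their own markers. Slc4a1, the type A anion exchanger, had a mean of 195.0 TPM among type A cells. Slc26a4, the type B anion exchanger, had one of 1201 TPM among type B cells. Single cells varied: 4 type A markers summed to between 0 and 2387 TPM in type A cells (median 780). Of 19 proximal tubule cells 14 held the principal cell water channel gene Aqp2 at 1 TPM or more (median 47.7 TPM over all 19). In the GFP-positive samples all 4 type A, 4 type B and 6 principal cell markers were higher than in the GFP-negative ones, so that this fraction was not limited to intercalated cells. Its 5 thick ascending limb markers summed to 9881 and 14795 CPM (read counts scaled to library size), against 8333 and 8642 CPM in GFP-negative samples. Of these 5, 1 was higher and 1 lower. Nothing in the labels says that samples of a group came from separate animals, so the p-values below measure only the spread between these samples. No animal is named for any single cell, so each cell type counts as 1 sample, no test between types was made, and the intervals on shares of cells (exact Clopper-Pearson, 95%) cover counting error only. In bulk samples, fewer cells of a type and less RNA per cell cannot be told apart.

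The genes lie on separate chromosomes apart from Mme and Enpep (GRCm38, GENCODE M21 gene spans). Agt spans chr8:124556534-124569706 on the minus strand, Ren1 chr1:133350510-133360325 on the plus strand and Ace chr11:105967945-105989964 on the plus strand. Mme spans chr3:63241537-63386030 on the plus strand and Enpep chr3:129269175-129332720 on the minus strand. Agtr1a spans chr13:30336441-30382867 and Atp6ap2 chrX:12587801-12617049, both on the plus strand. The annotation places the antisense gene Gm11651 across Ace, the sense intronic gene Gm48161 inside Agtr1a and the pseudogene Gm42628 on the other strand of Enpep. Whether reads were counted by strand was not given, so Ace and Gm11651 may share reads, and likewise Agtr1a and Enpep with their overlapping genes.

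Because Mme and Atp6ap2 moved one way between sorted fractions while Agt, Ren1 and Enpep moved the other way, the letters in front of their start sites are shown side by side, with Ace as the converting enzyme. Each line holds the 250 bases before a RefSeq start site (GRCm38.p6), 5′ to 3′ in the direction of the gene, and capitals mark the letters TATAAA or their reverse complement TTTATA. RefSeq lists 3 start sites for Mme and 2 for Ace, of which the first is shown; values per gene do not tell which start was used.
Agt, chr8:124569707-124569956, minus strand: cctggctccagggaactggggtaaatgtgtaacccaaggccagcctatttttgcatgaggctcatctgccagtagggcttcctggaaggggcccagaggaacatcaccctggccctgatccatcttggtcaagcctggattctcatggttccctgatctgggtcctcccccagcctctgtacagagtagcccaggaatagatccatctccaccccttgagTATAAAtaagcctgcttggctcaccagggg
Ren1, chr1:133350424-133350673, plus strand: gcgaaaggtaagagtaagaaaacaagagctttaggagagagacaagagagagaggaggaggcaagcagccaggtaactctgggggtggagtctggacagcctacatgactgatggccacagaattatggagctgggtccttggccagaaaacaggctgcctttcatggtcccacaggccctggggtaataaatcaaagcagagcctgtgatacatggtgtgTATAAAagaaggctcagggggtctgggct
Ace, chr11:105967698-105967947, plus strand: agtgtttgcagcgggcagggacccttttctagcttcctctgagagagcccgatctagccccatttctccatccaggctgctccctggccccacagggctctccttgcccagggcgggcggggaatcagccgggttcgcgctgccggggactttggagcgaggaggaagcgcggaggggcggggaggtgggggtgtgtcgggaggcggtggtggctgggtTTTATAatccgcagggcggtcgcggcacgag
Mme, chr3:63294961-63295210, plus strand: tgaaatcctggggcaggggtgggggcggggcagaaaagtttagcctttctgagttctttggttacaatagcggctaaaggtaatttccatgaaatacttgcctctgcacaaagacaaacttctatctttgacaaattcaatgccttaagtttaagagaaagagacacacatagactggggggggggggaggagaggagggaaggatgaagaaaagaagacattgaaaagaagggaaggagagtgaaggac
Enpep, chr3:129332750-129332999, minus strand: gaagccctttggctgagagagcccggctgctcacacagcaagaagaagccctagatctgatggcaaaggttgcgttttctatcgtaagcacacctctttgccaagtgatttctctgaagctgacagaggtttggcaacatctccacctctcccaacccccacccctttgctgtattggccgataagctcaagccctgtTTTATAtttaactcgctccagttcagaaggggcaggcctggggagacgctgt
Atp6ap2, chrX:12587509-12587758, plus strand: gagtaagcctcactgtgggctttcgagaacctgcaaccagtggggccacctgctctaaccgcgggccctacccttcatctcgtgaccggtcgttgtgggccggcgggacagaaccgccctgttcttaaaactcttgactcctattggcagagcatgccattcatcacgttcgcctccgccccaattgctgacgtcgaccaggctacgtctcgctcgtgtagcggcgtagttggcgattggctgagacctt
The letters TATAAA, searched on both strands, began 30 bases before the start of Agt and 29 bases before that of Ren1. On the opposite strand their complement began 31 bases before the start of Ace and 52 bases before that of Enpep. They were in none of the 3 windows of Mme, in the second window of Ace or in that of Atp6ap2. Of 32851 promoter windows of the same length, 12.4% held them. The letters GTTAAT (part of an HNF1 site, in 6.43% of windows) and TGTTTA (a forkhead core, in 12.0%) were in none of the members' windows. Such matches describe letters only, and their part in any level or difference was not tested.

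Between sorted fractions the members split by gene. In GFP-positive against GFP-negative cells, 6 of the 7 genes had enough reads to be tested with edgeR's quasi-likelihood test and all 6 differed at an adjusted p under 0.05, the threshold used throughout, where 32.5% of all 15667 genes tested did. Mme and Atp6ap2 were higher (2 of 6, against 15.2% of all genes), and Agt, Ace, Enpep and Agtr1a were lower (4 of 6, against 17.3%). In c-Kit against DBA cells, all 7 were tested with limma on log2(TPM + 1) and 6 passed, against 44.3% of 14341 genes. Mme and Atp6ap2 were again higher (2 of 7, against 16.1%), and Agt, Ren1, Enpep and Agtr1a were lower (4 of 7, against 28.1%). Of all calls in this comparison 36.5% were higher, or 49.9% after quantile normalization. In CCD against cTAL tubules, 5 of the 7 reached a mean of 1 TPM and only Atp6ap2 passed in the limma test, higher in CCD, against 18.7% of 13520 genes in either direction, 13.2% higher and 5.50% lower. There 70.5% of calls were higher, or 49.5% after quantile normalization, and the median log2 difference over all genes was 0.31 before and -0.03 after it. The median over the members tested was -2.22 in the GFP comparison, beside 0.02 over all genes, and -1.09 in c-Kit against DBA, beside -0.11. In the tubules it was 0.90, beside 0.31. In both sorts these medians pool members that moved in opposite directions.

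**Figure D1:**
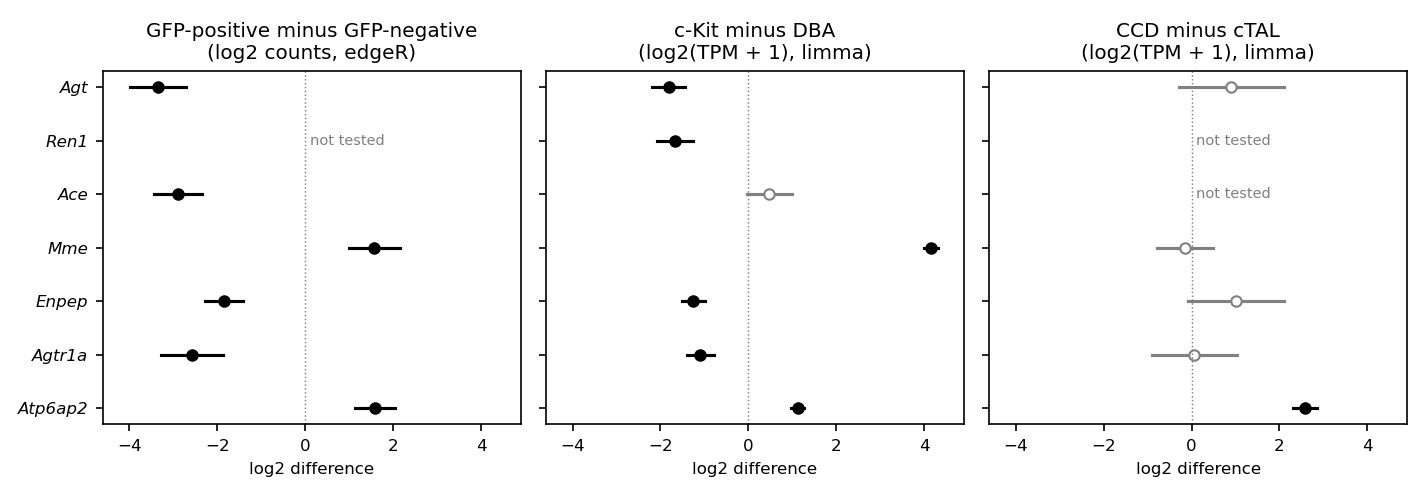
Log2 differences (x axis) of the 7 genes (y axis) in the 3 comparisons, with 95% intervals as lines; filled black points passed an adjusted p under 0.05, open grey points did not. Mme and Atp6ap2 lie to the right of 0 in both sorts, and only Atp6ap2 has a filled point in the tubule panel.

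The precursor Agt, which encodes angiotensinogen, was detected in single cells only among those labelled proximal tubule, several of which also held principal cell markers. It reached 1 TPM or more in 6 of 19 of them, 31.6% (interval 12.6 to 56.6%), at 5.13, 18.4, 22.1, 23.4, 199 and 481 TPM. In type A, type B, principal and non-epithelial cells it reached that level in 0 of 87, 0 of 23, 0 of 74 and 0 of 32 cells, and the exact intervals allow shares up to 4.15%, 14.8%, 4.86% and 10.9%. The cell with 481 TPM and that with 5.13 TPM held only 1.35 and 3.70 TPM of Slc34a1, the proximal phosphate transporter, and the latter held 3113 TPM of the principal cell water channel Aqp2. Among the 15 proximal cells with at least 100 TPM of Slc34a1, Agt was detected in 3, or 20.0% (interval 4.33 to 48.1%). The cells with 18.4 and 199 TPM of Agt held more summed principal cell markers (10532 and 1622 TPM) than proximal ones (1077 and 744 TPM). That with 22.1 TPM held 116 TPM of principal and 1653 TPM of proximal markers.

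In the sorted fractions Agt moved the same way as proximal markers. Its level was 41.4 and 60.9 CPM (read counts scaled to library size by TMM) in the GFP-negative samples and 4.54 and 5.44 CPM in the GFP-positive ones, and the groups did not overlap. The log2 difference was -3.36 (SE 0.28, adjusted p = 7.92e-05, edgeR), a ratio of mean CPM of 10.2. In the DBA samples Agt stood at 39.6 and 30.9 TPM and in the c-Kit samples at 10.2 and 8.39 TPM, again without overlap, a log2 difference of -1.81 (SE 0.16, adjusted p = 0.000197, limma), which missed the threshold when genes of low level were kept in the fit (adjusted p = 0.0594, limma). All 8 proximal tubule markers were lower in GFP-positive cells, their summed level being 16270 and 17010 CPM in the negative and 2025 and 3156 CPM in the positive samples. In c-Kit cells 5 of these 8 were lower and 1 higher, with sums of 1514 and 1662 TPM against 3106 and 3232 TPM in DBA cells. Their part in the result was not tested.

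Single tubules held little Agt. In 11 CCD it ranged from 0 to 23.3 TPM with a median of 0.59 TPM, and in 8 cTAL from 0 to 2.76 TPM with a median of 0. The groups overlapped and the log2 difference of 0.90 (interval -0.29 to 2.09) did not pass (adjusted p = 0.318, limma). The highest value belonged to the tubule m4_CCD1, which also had the highest summed proximal markers of all 19 tubules, 457 TPM, and the difference without it was 0.57.

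Ren1, the renin gene, was found at high level in bulk sorted C57BL/6 cells and in no single cell. The DBA samples held 331.9 and 440.1 TPM and the c-Kit samples 104 and 137 TPM. The DBA values were all above the c-Kit values, with a log2 difference of -1.67 (SE 0.17, adjusted p = 0.000400, limma). With genes of low level kept in the fit it did not pass (adjusted p = 0.102, limma). The 6 granular and mural cell markers, among them Akr1b7 and Acta2, were all lower in c-Kit cells too, summing to 136 and 184 TPM against 302.4 and 307 TPM in DBA cells, none at 0. Their part in the result was not tested.

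No cell of any of the 5 types reached 1 TPM of Ren1, and the highest value was 0.24 TPM, in a type B cell. The exact interval for 0 of 74 principal cells allows a share of up to 4.86%. In the GFP-sorted cells of the other strain, Ren1 had 6 and 7 reads in the negative and 2 and 1 reads in the positive samples, too few to be tested. Its near-identical copy Ren2 had 1 and 0 reads in the negative and 4 and 0 in the positive samples, so the assignment between them is uncertain. Whether reads that match both copies were counted is not known, so these counts may understate Ren1. Strain and unit also differ from those of the c-Kit and DBA samples, so the Ren1 levels cannot be compared directly. The granular and mural markers summed to 54.0 and 61.0 CPM in GFP-negative and 49.5 and 57.5 CPM in GFP-positive samples. In tubules Ren1 stayed at or below 0.99 TPM in CCD and reached 2.47 TPM in 1 cTAL, the other 7 being at 0.13 TPM or lower.

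**Figure D2:**
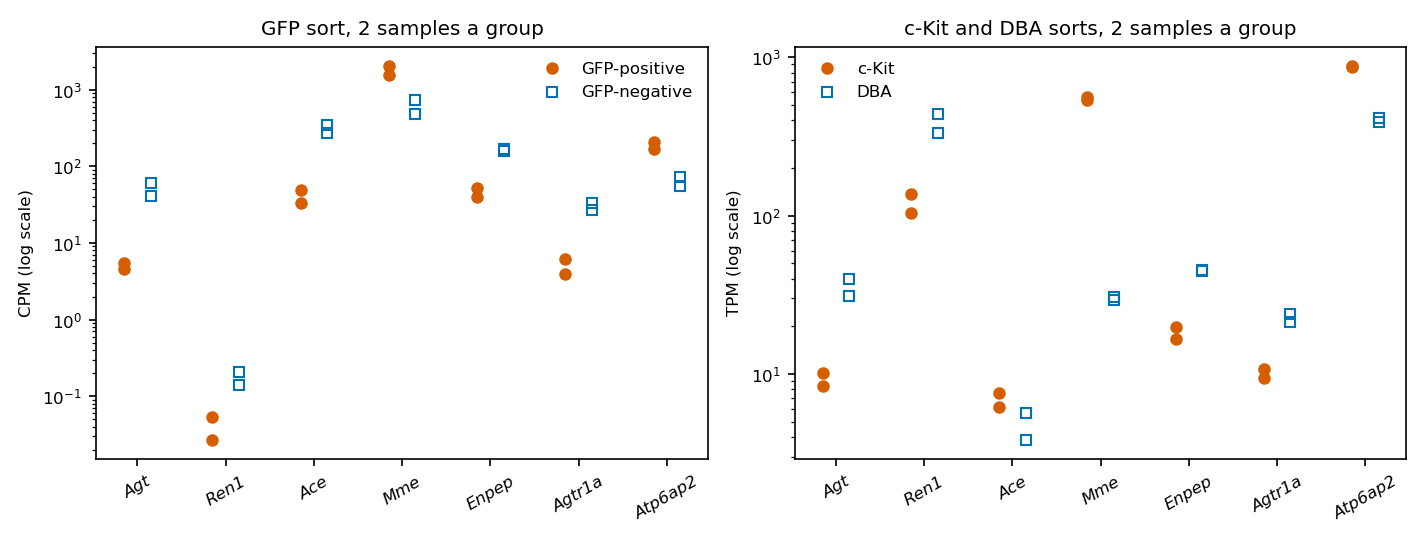
Level of each gene in the sorted bulk samples, as TMM-scaled CPM in GFP sorts (left) and TPM in c-Kit and DBA sorts (right), on log axes; each symbol is 1 sample. Mme and Atp6ap2 are higher in GFP-positive and c-Kit samples. Ren1 reaches 440.1 TPM in a DBA sample and stays below 1 CPM in all GFP sorts. The panels differ in strain and unit, so levels cannot be compared between them.

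Ace encodes the enzyme that converts angiotensin I to angiotensin II and also breaks down bradykinin. Its level was 271 and 345 CPM in GFP-negative and 49.1 and 33.3 CPM in GFP-positive cells. The groups were well apart, with a log2 difference of -2.90 (SE 0.24, adjusted p = 7.92e-05, edgeR). The proximal markers listed for Agt moved the same way, and so did all 4 endothelial and all 5 leukocyte markers. Between c-Kit cells (6.22 and 7.55 TPM) and DBA cells (3.80 and 5.65 TPM) the samples did not overlap, but the log2 difference of 0.48 (interval -0.03 to 0.98) did not pass (adjusted p = 0.113, limma). With quantile normalization it did (0.74, adjusted p = 0.0290, limma). In c-Kit cells 5 of 8 proximal, 2 of 4 endothelial and 4 of 5 leukocyte markers were lower, and 1 proximal marker was higher. The part of any of these cells in the Ace results was not tested.

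Ace was rare among single cells. Proximal tubule cells held it in 10.5% of cases (2 of 19; interval 1.30 to 33.1%), at 6.28 and 279.6 TPM, so that 1 cell carried nearly all of the mean of 15.1 TPM. Of 32 non-epithelial cells 3 held 1.01, 3.23 and 7.34 TPM, and those with 1.01 and 7.34 TPM also held 2193 and 121 TPM of Slc34a1. No type A, type B or principal cell reached 1 TPM. In tubules Ace lay between 0 and 9.11 TPM in CCD and between 0 and 1.39 TPM in cTAL, under the filter, and the highest value was again that of m4_CCD1.

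Mme encodes neprilysin, a membrane metallopeptidase that cleaves angiotensin I to angiotensin 1-7 and degrades natriuretic peptides and kinins. Among single cells its level was highest in type A intercalated cells, where it ranged from 0 to 2462 TPM with a mean of 639 and a median of 409 TPM. At 1 TPM or more it was found in 93.1% of them (81 of 87; interval 85.6 to 97.4%). Means followed at 181 TPM in non-epithelial, 93.9 TPM in proximal tubule, 69.1 TPM in principal and 15.6 TPM in type B cells, and the medians of these 4 types were all under 2 TPM, at 1.96, 1.60, 0.69 and 1.11 TPM. The middle 50% of type A cells spanned 87.2 to 1054 TPM, apart from that of type B (0.02 to 2.48), principal (0 to 2.23) and proximal cells (0.23 to 19.4) and overlapping that of non-epithelial cells (0.80 to 125).

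High Mme outside type A cells went with type A markers in principal and non-epithelial cells but mostly not in proximal or type B cells. Of 74 principal cells 6 held at least 100 TPM of Mme, of which 5 had Slc4a1 and all 6 had Kit at 1 TPM or more. Over all 74, 14 had Slc4a1 and 19 had Kit. Of 32 non-epithelial cells 9 held at least 100 TPM of Mme, of which 7 had Slc4a1 and 9 had Kit. Over all 32, 15 had Slc4a1 and 15 had Kit. All 9 also had the leukocyte gene Ptprc, but so did 30 of all 32. When cells with either type A marker were left out, the mean Mme level of principal cells went from 69.1 to 0.75 TPM (52 cells left) and that of non-epithelial cells from 181 to 1.38 TPM (12 cells left). This fall follows from the counts above, because every principal or non-epithelial cell with at least 100 TPM of Mme had Kit. Kit also encodes the surface protein that some of the single cells were sorted on. In type B cells the mean Mme level stayed at 15.6 TPM (17 cells left), and the 1 type B cell with at least 100 TPM of Mme had neither marker. In proximal cells the mean was 109 TPM in the 14 cells left, and 4 of the 19 proximal cells held 225, 398, 475 and 634 TPM, of which only the first had Slc4a1 (47.6 TPM). Whether chambers held more than a single cell was not tested. Within type A cells, 60 of the 62 with at least 100 TPM of Mme had Slc4a1, while 1 of the 6 with under 1 TPM of Mme did.

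Over the cells of all 5 types, the genes with the pattern most like Mme were Aqp6, the intercalated cell water channel (Pearson r of log2(TPM + 1) 0.77), Slc4a1 (0.74) and Adgrf5, an adhesion receptor (0.73), out of 8338 genes compared. These correlations describe cells that share types and chips, and they have no test. In c-Kit samples Mme stood at 533 and 564 TPM and in DBA samples at 29.3 and 30.4 TPM, an 18.4-fold ratio of means. The log2 difference of 4.15 (SE 0.06, adjusted p = 5.78e-07, limma) was the largest of the 7 genes in that comparison. Summed type A markers were 3059 and 3097 TPM in c-Kit and 61.1 and 73.1 TPM in DBA samples. In GFP-positive cells it reached 1562 and 2064 CPM against 489.6 and 732 CPM in GFP-negative cells, without overlap, a log2 difference of 1.57 (SE 0.26, adjusted p = 0.00210, edgeR). Summed type A markers differed far more there, at 3586 and 8078 CPM against 50.7 and 89.6 CPM.

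In tubules Mme was present at like level in both segments. It ranged from 30.8 to 149 TPM in CCD (median 87.1, mean 82.3 ± 37.5, SD, n = 11) and from 39.0 to 119 TPM in cTAL (median 83.6, mean 84.5 ± 23.7, SD, n = 8), so the groups overlapped widely. The log2 difference was -0.15 (interval -0.78 to 0.49, adjusted p = 0.795, limma), and relative to the median of all genes it was -0.46. Type A markers summed to at most 1.11 TPM in any cTAL tubule, against 305 to 816 TPM in CCD. Proximal markers summed to between 0.09 and 152 TPM in cTAL, and those of the straight part of the proximal tubule to between 182 and 428 TPM, against 44.7 to 419.8 TPM in CCD. Of these 4 straight part genes Slc5a1, a sodium-glucose transporter, made up most of the cTAL sum (167 to 341 TPM, against 0.04 to 9.36 TPM in CCD), while Cyp7b1 was higher in CCD by 3.49 (adjusted p = 7.88e-05, limma) and the other 2 did not pass. The cTAL tubule with 0.09 TPM of proximal markers, m2_cTAL1, held 119 TPM of Mme, the highest value of that group. Like every cTAL tubule, it held at least 182 TPM of straight part markers. The part of proximal cells in the Mme level was not tested.

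**Figure D3:**
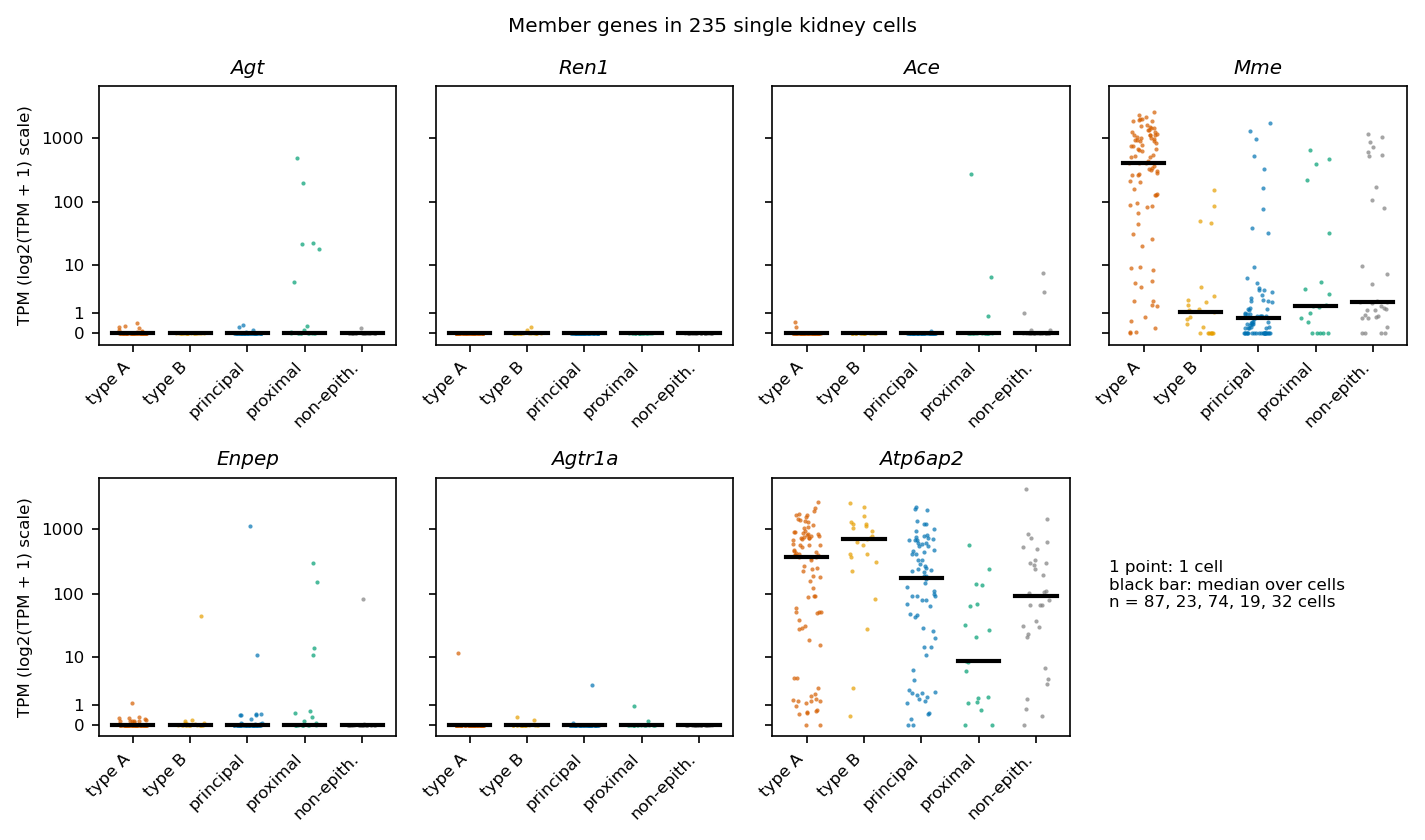
TPM of the 7 genes on a log2(TPM + 1) scale (y axis) in each cell by type (x axis); points are cells and bars medians. Mme has a median of 409 TPM in type A cells, Atp6ap2 is present in all types, and Agt is seen among proximal tubule cells.

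Enpep encodes aminopeptidase A, which turns angiotensin II into angiotensin III. Among proximal cells 4 of 19 held it (21.1%, interval 6.05 to 45.6%), at 10.6, 14.2, 154 and 303 TPM. Elsewhere it was at 1 TPM or more in 1 type A cell (1.13 TPM), 1 type B cell (45.0 TPM), 1 non-epithelial cell (83.5 TPM) and 2 principal cells (10.5 and 1110.3 TPM). The principal cell with 1110.3 TPM had 1412 TPM of Aqp2 and 0.77 TPM of summed proximal markers. The proximal cell with 303 TPM had 805 TPM of Aqp2 and 0.11 TPM of Slc34a1, though 31.6 TPM of the proximal endocytic receptor Lrp2.

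Among sorted cells Enpep was lower in both intercalated-rich fractions. It stood at 170.2 and 161 CPM in GFP-negative and 51.5 and 40.1 CPM in GFP-positive samples, a log2 difference of -1.85 (SE 0.19, adjusted p = 0.000163, edgeR). In DBA samples it was 44.6 and 45.1 TPM and in c-Kit samples 16.7 and 19.9 TPM, a log2 difference of -1.26 (SE 0.11, adjusted p = 0.000193, limma). Neither pair of groups overlapped. All 8 proximal tubule markers were lower in GFP-positive cells. In c-Kit cells 5 of these 8 were lower and 1 higher. Of 4 markers of the straight part of the proximal tubule, 1 was lower in c-Kit cells and 2 were higher. In tubules it ranged from 0 to 10.8 TPM in CCD (median 2.5) and from 0 to 2.03 TPM in cTAL (median 0.44). With a log2 difference of 1.01 (interval -0.08 to 2.11) it did not pass (adjusted p = 0.208, limma). Weighting tubules by their fit gave 1.42 and an adjusted p of 0.0320 (limma).

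At 1 TPM or more, no proximal cell held more than 1 of Agt, Ace and Enpep. Of the 19 proximal cells 12 held at least 1 TPM of 1 of these genes and 0 held more than 1 of them, but at a threshold of 0.1 TPM 6 did. Mme was present in 4 of the 6 cells with Agt, 2 of the 2 with Ace and 2 of the 4 with Enpep. With so few cells, and a depth per cell that is not known, a gene at 0 in a cell may have been missed.

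**Figure D4:**
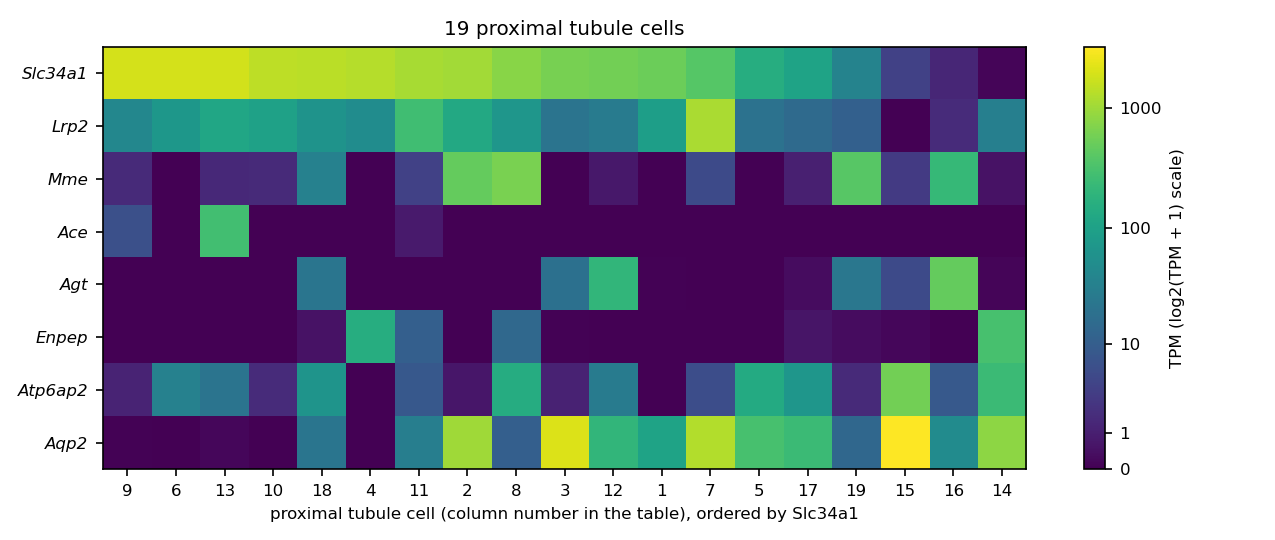
TPM (colour, log2(TPM + 1) scale) of 5 members and of Slc34a1, Lrp2 and Aqp2 (rows) in the 19 proximal tubule cells (columns), ordered by Slc34a1. Agt, Ace and Enpep reach 1 TPM in different cells, and the 3 cells at the right hold between 0.11 and 3.70 TPM of Slc34a1.

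Agtr1a encodes the AT1a receptor for angiotensin II. It was nearly absent from single cells, with 11.7 TPM in 1 type A cell and 3.04 TPM in 1 principal cell and under 1 TPM in all other cells. That principal cell held 1160 TPM of Aqp2 but also 237 TPM of Slc34a1 and 1815 TPM of summed proximal markers. The type A cell held 834 TPM of Slc4a1 and 11.5 TPM of summed proximal markers. In bulk it was measured more firmly: 1157 and 1152 reads in GFP-negative and 232 and 149 reads in GFP-positive samples, or 27.1 and 33.7 CPM against 6.23 and 3.93 CPM. The groups did not overlap and the log2 difference was -2.58 (SE 0.31, adjusted p = 0.000390, edgeR). In DBA cells it stood at 24.0 and 21.3 TPM and in c-Kit cells at 10.8 and 9.43 TPM, a log2 difference of -1.09 (SE 0.12, adjusted p = 0.000666, limma), which missed the threshold with genes of low level kept (adjusted p = 0.0545, limma). Markers of other cells moved with it: all 5 leukocyte markers (480.3 and 1144 CPM in GFP-negative, 78.0 and 104 CPM in GFP-positive samples) and all 4 endothelial markers (140 and 314 CPM against 36.0 and 62.8 CPM) were lower in GFP-positive cells. In DBA samples the leukocyte markers summed to 12445 and 12979 TPM, and in c-Kit samples to 4569 and 4695 TPM. There 4 of 5 leukocyte and 2 of 4 endothelial markers were lower in c-Kit cells, and the rest did not pass. All 8 proximal tubule markers were lower in GFP-positive cells too, while in c-Kit cells 5 were lower and 1 higher. The 6 granular and mural markers were all lower in c-Kit cells, and none passed in the GFP comparison. The part of any of these cells in the result was not tested.

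In tubules Agtr1a ranged from 0 to 5.98 TPM in CCD (median 0.54) and from 0 to 6.92 TPM in cTAL (median 0.005). The groups overlapped, and the log2 difference was 0.06 (interval -0.90 to 1.03, adjusted p = 0.947, limma), whose sign is not settled: alternatives ran from -0.26 to 0.61. It fell below 0 with a pseudocount of 5, with quantile normalization, with sample weights, or with any 1 of m1_CCD1, m4_CCD1, m6_CCD1, m1_cTAL1, m2_cTAL1, m3_cTAL1, m4_cTAL1 and m6_cTAL2 left out. The other mouse AT1 receptor gene, Agtr1b, had too few reads or too low a level to be tested in any comparison.

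Atp6ap2 encodes the (pro)renin receptor, which is also an accessory subunit of the vacuolar proton pump that intercalated cells use to secrete acid. It was the most widely detected of the 7 genes, at 1 TPM or more in 215 cells. Type B cells had the highest mean, 794 TPM (median 699; 22 of 23 cells), then type A cells with 504 TPM (median 369; 79 of 87), principal cells with 366 TPM (median 179; 69 of 74), non-epithelial cells with 348 TPM (median 93.0; 29 of 32) and proximal cells with 70.2 TPM (median 8.40; 16 of 19). The middle 50% of type B cells, 339 to 1167 TPM, lay above that of proximal cells, 1.40 to 66.9 TPM, and overlapped that of type A cells, 29.0 to 789.7 TPM, and of principal cells, 15.9 to 584 TPM. The highest single value, 4076 TPM, was in a non-epithelial cell, without which that type's mean was 227 TPM. The genes most like it over all cells were Atp6v0b (r = 0.39) and Atp6v0e (0.38), both subunits of the proton pump, and the calcium-binding protein gene S100a1 (0.37), which are weak correlations.

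Atp6ap2 was the single member higher in all 3 comparisons. In GFP-positive samples it was at 169 and 211 CPM and in GFP-negative ones at 55.8 and 71.7 CPM, a log2 difference of 1.58 (SE 0.20, adjusted p = 0.000551, edgeR). In c-Kit samples it was at 864 and 883 TPM and in DBA samples at 413 and 391 TPM, a log2 difference of 1.12 (SE 0.06, adjusted p = 2.68e-05, limma). Neither pair of groups overlapped.

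The 11 CCD tubules held 525 to 928 TPM of Atp6ap2 (median 693, mean 676 ± 117, SD) and the 8 cTAL 78.7 to 136 TPM (median 111, mean 112 ± 20.0, SD). Every CCD tubule was above every cTAL tubule, a 6.06-fold ratio of means and a log2 difference of 2.59 (SE 0.13, adjusted p = 3.78e-13, limma), or 2.28 relative to the median of all genes. A two-sided exact permutation test over the 19 tubules gave p = 1.32e-05, the smallest that its 75582 arrangements can give. After quantile normalization the difference was 2.41, and with tubules that share a column prefix averaged it was 2.66.

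**Figure D5:**
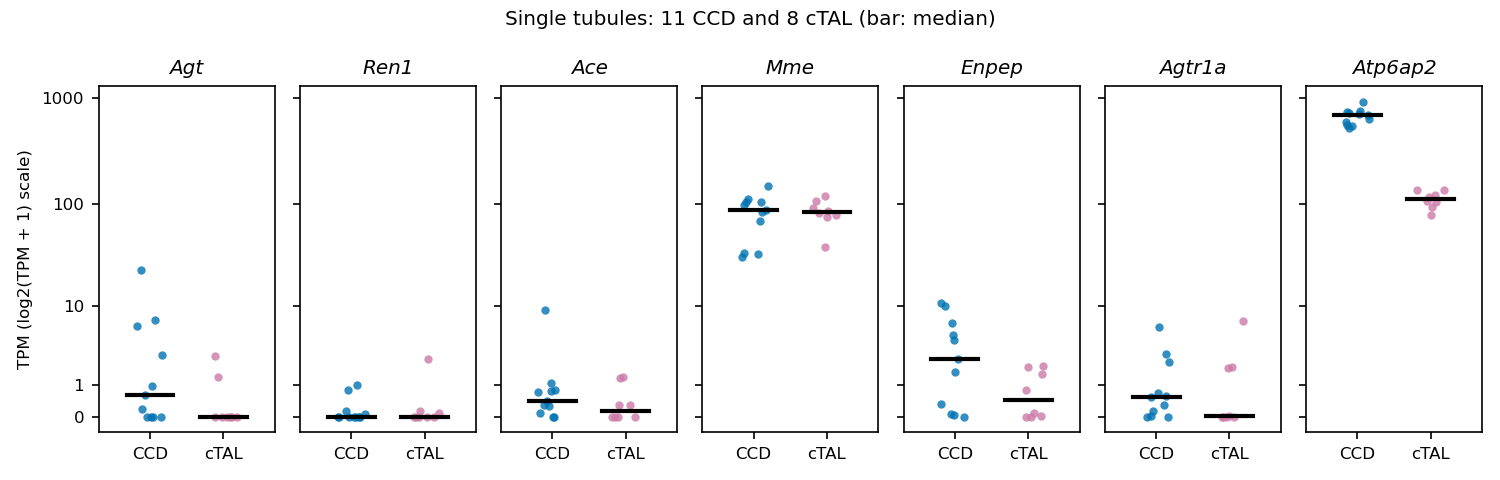
TPM of the 7 genes (y axis, log2(TPM + 1) scale) in 11 CCD and 8 cTAL tubules (x axis); points are tubules and bars medians. Atp6ap2 separates the segments, Mme overlaps, and the other 5 genes lie at or near 0 in most tubules.

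The rest of the angiotensin and kinin systems was read from a list of 25 genes chosen by role. In GFP-positive cells 18 could be tested, of which 7 were higher (15.2% of all genes were) and 5 lower (17.3%). In c-Kit against DBA cells 17 were tested, with 7 higher (16.1% of all genes) and 3 lower, a smaller share than the 28.1% of all genes. In CCD against cTAL 16 were tested, with 3 higher (13.2%) and 4 lower (5.50%). The median log2 difference of the list was 0.46 in the GFP comparison, beside 0.02 over all genes, -0.0019 in c-Kit against DBA, beside -0.11, and 0.23 in the tubules, beside 0.31. The aminopeptidase gene Anpep was higher in c-Kit cells (45.1 and 53.3 TPM) than in DBA cells (9.51 and 12.2 TPM), a log2 difference of 2.08 (adjusted p = 8.17e-05, limma), and its mean was 81.0 TPM among type A and 99.3 TPM among proximal cells.

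Among kallikrein-kinin genes, 3 of 4 tested were lower in CCD, all 4 tested were higher in GFP-positive and all 3 tested were higher in c-Kit cells, beside 5.50%, 15.2% and 16.1% of all genes. In the GFP comparison 2 of these calls were lost in 5 of 12 alternatives each: that of Kng1 on RPKM, with or without a block, and without GFP-negative 1, GFP-positive 1 or GFP-positive 2 (adjusted p up to 0.439), and that of Bdkrb2 on RPKM likewise and without GFP-negative 2, GFP-positive 1 or GFP-positive 2 (up to 0.383). Klk1, tissue kallikrein, which frees kinins from kininogen, was at 3526 to 13154 TPM in cTAL and 79.0 to 582 TPM in CCD tubules, a log2 difference of -5.60 (adjusted p = 4.25e-11, limma). Kng2, a kininogen gene, was at 2346 to 3681 TPM in cTAL and 3.06 to 190 TPM in CCD tubules, a log2 difference of -5.56 (adjusted p = 2.85e-09, limma). In sorted cells both were higher in GFP-positive and in c-Kit cells: Klk1 by 3.97 and 2.75, and Kng2 by 0.90 and 1.47 on the log2 scale. Distal convoluted and connecting tubule markers were higher in GFP-positive cells too, 5 of 5, with sums of 2075 and 2273 CPM against 153 and 182 CPM. In c-Kit cells they summed to 4739 and 4883 TPM, against 1665 and 1813 TPM in DBA cells, with 1 of 5 higher and 1 lower. Their part in the result was not tested. Klk1 averaged 14344 TPM in type B cells with a median of 914 TPM, and 2318 TPM in type A cells with a median of 207 TPM. Cathepsin D (Ctsd), a lysosomal aspartic protease, was at 1930 to 2597 TPM in CCD and 974 to 1602 TPM in cTAL tubules, without overlap, a log2 difference of 0.80 (adjusted p = 8.43e-08, limma). Rare mast cell proteases stood out in c-Kit cells, with Cma1, a chymase that can also form angiotensin II, at 18.5 and 20.2 TPM and Cpa3 at 35.8 and 43.8 TPM, against at most 0.17 TPM of either in DBA cells. In single cells nearly all of either came from 1 cell labelled type A, the same for both, at 8032 TPM of Cma1 and 6459 TPM of Cpa3.

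The 8 brush border peptidases that share the apical membrane of proximal cells with Mme, Ace and Enpep were lower in GFP-positive cells in 7 cases, against 17.3% of all genes. Anpep was short of the threshold (-0.69, adjusted p = 0.0505, edgeR) and passed as lower in 7 of 12 alternatives. Their median log2 difference was -2.39, beside 0.02 over all genes. Mme was higher there. In c-Kit against DBA cells 4 of the 8 were lower (28.1% of all genes were) and Anpep was higher, with a median of -0.48. In CCD against cTAL 7 were tested: Dpp4 was higher (13.2% of all genes were) and 2 were lower (5.50%), among them Ggt1, at 552 to 1296 TPM in cTAL and 9.36 to 307 TPM in CCD tubules. Mep1a, a meprin subunit, was detected in 14 of 19 proximal cells and averaged 78.7 TPM, so that it was seen in more of them than Agt, Ace or Enpep.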

How the data were processed

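The values analysed are tables the authors deposited: TPM for single cells, c-Kit and DBA samples and tubules; read counts (HTSeq-count, RefSeq mm10, per the file headers and names) and RPKM for the GFP samples. The tubule unit was read from the values. STAR 2.5.1b, RSEM 1.2.31, Seurat and GRCm38.p5 are named, without role, in the submitters' processing notes. Reads listed as not assigned to a gene, for any reason, were pooled and made up 66.7 to 72.8% of those listed. They were left out, as were rows with repeated symbols. TPM keeps no depth, and PCR copies are not independent molecules.

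Counts were compared with edgeR 4.0.16 (R 4.3.3; TMM, filterByExpr, quasi-likelihood test) and TPM with limma 3.58.1 on log2(TPM + 1), pseudocount 1, mean of at least 1 TPM, variance trend. P-values were adjusted by Benjamini-Hochberg over all genes tested, called under 0.05. Both were tested on simulated data. Fold changes on log2(TPM + 1) understate the change of low genes. Cell types are the authors' own and no caller of doublets was run. Cell columns were tied to types, not to single titles. Genes were matched by Ensembl identifier or, in the count table, by symbol; the promoter table had entries for 6 of the 7 genes. The members and lists were chosen with earlier results of these data known. Named genes are the 7 members, genes of 2 role lists that were called without overlap or averaged 50 TPM in a cell type, of which a part is printed, and the 3 genes most like a member found in at least 20 cells. Alternatives were other tests, scalings, filters, pseudocounts, units, blocks, detection thresholds and left-out samples. Values of 1 gene of the lists are not reported here.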

Additional observations from a re-analysis of the deposited data

Results flagged for a closer look

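A check for 1 sample standing far from the rest of its group was run on the 8 cTAL tubules; the 11 CCD tubules are above, and the other groups below, the sizes it covers. Of 25 genes with a spread there, 8 had such a sample. The check assumes values of normal shape and was run on TPM without logs. Several of these genes lay near 0 TPM, so the number expected by chance is not known. Among the members, Ren1 was at 2.47 TPM in m3_cTAL1, with the next tubule at 0.13 TPM, and Agtr1a was at 6.92 TPM in m6_cTAL1, with the next at 1.94 TPM. Of the brush border genes, Anpep was at 21.0 TPM in m1_cTAL1 (next 2.69 TPM), Dpp4 at 1.94 TPM in m7_cTAL2 (next 0.11 TPM) and Mep1a at 55.2 TPM in m7_cTAL1 (next 11.6 TPM). Without m1_cTAL1 the CCD to cTAL difference of Anpep passed (1.67, adjusted p = 0.00622, limma), and without m7_cTAL1 that of Mep1a did (2.39, adjusted p = 0.0440, limma). Lnpep was at 8.66 TPM in m4_cTAL1 (next 3.99 TPM), and Cpa3 at 0.03 TPM in m7_cTAL1 while the others were at 0. Kng2 was low in m6_cTAL1, at 2346 TPM, where the next tubule had 3059 TPM.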

How the results depend on the processing

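All 6 members called in the GFP comparison passed under each alternative run, with adjusted p of at most 0.0217. Of all genes, 5098 were called, against 1639 with limma on RPKM and 2157 with limma on RPKM and the experiment as a block. With the replicate number as a block 5887 genes were called, and the same 6 members. In c-Kit against DBA, 6348 genes were called, 2253 with no filter on low values (where 3 members in place of 6 passed), 6271 with the replicate block, and 3458 to 5701 with a sample left out, 3600 without DBA 1 and 3458 without DBA 2. In CCD against cTAL, 2526 genes were called, 4401 with sample weights (2 members in place of 1), 3078 without m2_CCD2 and 2239 to 3078 over all tubules left out. Blocks by column prefix (2588 genes) and means over a prefix (1823 genes) were added after seeing the data, as was the block on RPKM; what the prefixes m1 to m7 stand for is not stated. Samples of 1 number deviated together weakly (r = 0.14 in the GFP and 0.03 in the c-Kit and DBA samples; 0.02 to 0.16 over 6 prefixes), with 2 of 6 CCD prefixes best matched with their own, so the fits without a block are the main ones, and no member's call changed with a block. No paired analysis was possible for single cells because no test was made. In cells, the share of type A cells with Mme was 81.6% at a threshold of 10 TPM, and all type B cells (100%) passed 0.1 TPM of Atp6ap2. Thresholds of 0.1 and 10 TPM for Ace, Agt and Enpep in 1 proximal cell were added after seeing the data, giving 6 and 0 cells with more than 1 of them. By the median, 2 of the 7 members kept the type with their highest value, since the other 5 were at 0 in all types. Agtr1a, with 2 positive cells, has no stable order. Restricting proximal cells to the 15 with at least 100 TPM of Slc34a1 was added after seeing the data. It gave shares of 13.3% for Ace, 20.0% for Agt and 20.0% for Enpep, beside 10.5%, 31.6% and 21.1% in the full set. The 15 cells are part of that set, so this is no separate check. The depth of the TPM samples is unknown, which limits what a value of 0 says.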
